A study of Homo sapiens with 6 samples.

Results

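The 32 genes described here encode enzymes of cholesterol synthesis (18 sterol enzymes), a group called sterol regulators (6 genes) and enzymes of fatty acid synthesis (8 fatty acid enzymes). The regulators sense sterols or control their synthesis, except STARD4, a sterol carrier placed with them. They were found by gene symbol among the 34738 genes of the deposited expression table. All 32 were listed, and all 32 had a mean FPKM (a level that corrects the fragments of a gene for transcript length and for the depth of the library) of at least 1, which placed them among the 11867 genes tested. The libraries came from a human thyroid cancer cell line after knockdown of GDF15, a secreted stress-induced cytokine, by small interfering RNA (siGDF15) and from control cells of that line (NC), with 3 poly(A) RNA libraries in each group. The sample labels give the line as KHM-5M, an anaplastic thyroid carcinoma line, whereas a figure legend of the study gives TPC-1. The controls are called negative control cells in the study's methods, which also list a negative control siRNA among the siRNAs used, vector control cells in a figure legend and a blank control in the deposited design, so what the sequenced controls received was not settled here. If they received no siRNA, the effect of transfection and that of GDF15 loss cannot be told apart. The study lists 1 siRNA sequence against GDF15. Effects of that siRNA on other genes therefore cannot be told apart from GDF15 loss, whatever the controls received. The libraries are called biological replicates, and the time from transfection to harvest and the number of cultures behind them are not given in the sources used here.

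Cells build cholesterol from acetyl-CoA through the mevalonate pathway, which ends in squalene, and through a second set of reactions in the endoplasmic reticulum that close, demethylate and reduce the sterol rings. Acetyl-CoA is also the starting point of fatty acids, which are made by FASN and then elongated and desaturated. Both branches are controlled by the transcription factors SREBP1 and SREBP2, the products of SREBF1 and SREBF2: SCAP escorts them to the Golgi for cleavage when sterols are scarce, and INSIG1 and INSIG2 retain SCAP in the endoplasmic reticulum when sterols are plentiful.

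Among the 32 genes, 13 rose and 10 fell in siGDF15 and 9 did not pass the test (edgeR's quasi-likelihood test on the deposited expected counts, adjusted p under 0.05 after Benjamini-Hochberg correction over all tested genes). Over all tested genes, 61.4% were called, 30% as higher and 31.4% as lower, so the 71.9% called among the 32 genes stood near the background. The changes were small. The log2 fold changes (siGDF15 over NC, on counts scaled by the trimmed mean of M values, TMM) ran from -0.80 for EBP to 0.55 for TM7SF2, with a median of 0.11 beside 0.003 over all tested genes. With a change of 1 or more on the log2 scale asked for beside the adjusted p, none of the 32 genes was called, whereas 7.81% of all tested genes were. That count was also 0 with DESeq2 and limma. The unadjusted p in edgeR was under 0.05 for 26 of the 32 genes and for 7744 of the 11867 tested genes.

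The direction was mixed within each branch. Of the 18 sterol enzymes, 6 rose, 6 fell and 6 did not pass the test, with a median log2 fold change of 0.04 that became -0.07 with libraries scaled to their totals and no TMM factor. Of the 6 sterol regulators, 3 rose, 1 fell and 2 did not pass, with a median of 0.32. Of the 8 fatty acid enzymes, 4 rose, 3 fell and 1 did not pass, with a median of 0.04 that became -0.06 without TMM. The medians of the sterol and the fatty acid enzymes thus lay within 0.01 of each other on the log2 scale. The scaling moved the split of the calls: without TMM, 7 of the 32 genes were higher and 11 lower, and over all tested genes the share of higher calls went from 48.9% to 36.6% and the median log2 fold change from 0.003 to -0.099. Directions below are relative to the TMM scale, on which the FPKM ratio of siGDF15 to NC is raised by 0.10 (log2).

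**Figure D1:**
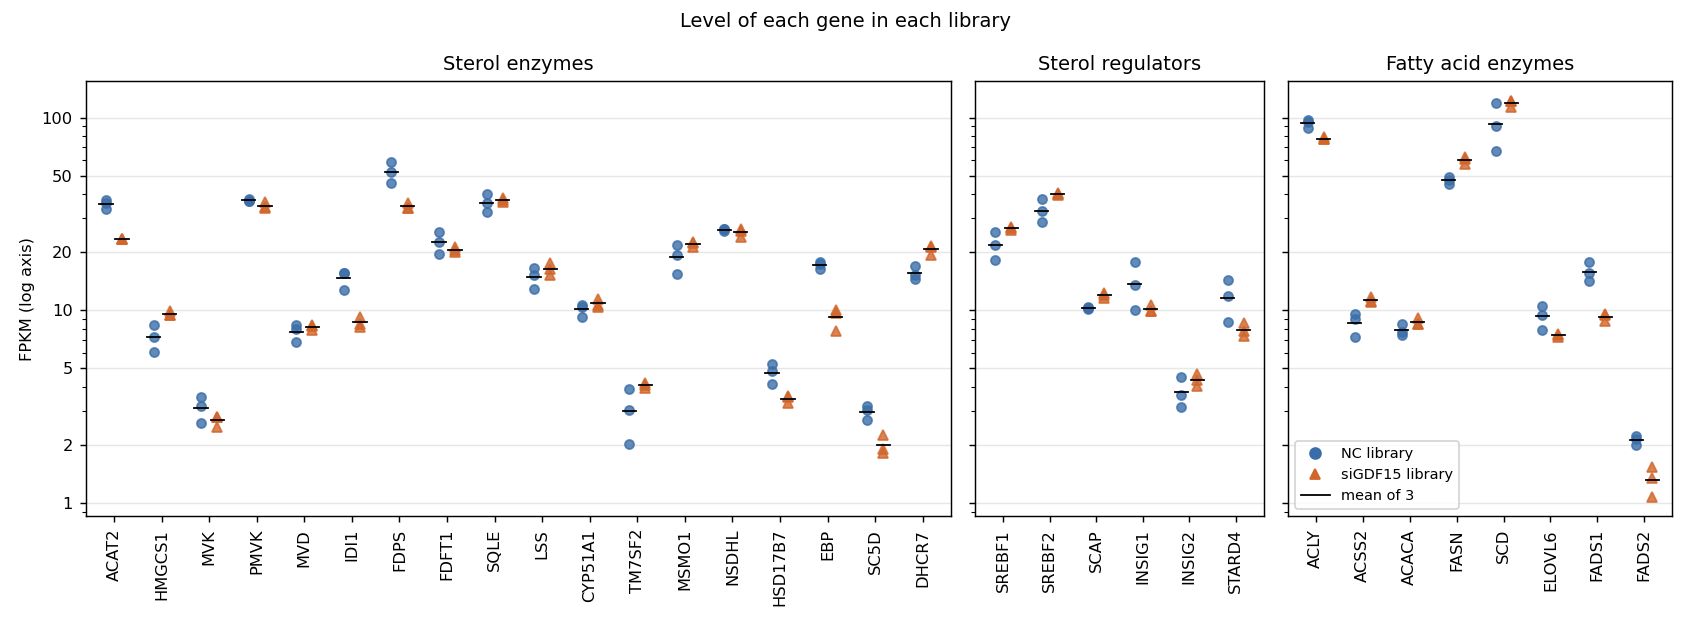
FPKM (log axis) of each of the 32 genes in each library, in pathway order within the 3 groups of genes; circles are NC libraries, triangles siGDF15 libraries and black bars the mean of 3. EBP, IDI1, FADS1 and FADS2 show all siGDF15 libraries below the lowest NC library, FASN and DHCR7 every one above, and for INSIG1, STARD4, SCD and TM7SF2 the NC circles are spread far wider than the siGDF15 triangles.

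Total expected counts were between 51738814 and 68025163 per library, lowest in siGDF15 replicate 2, and the 32 genes had between 521 and 47937 counts each in a library. GDF15 was lower in every siGDF15 library (10.7 ± 0.166 FPKM, SD, n = 3) than in any NC library (21.6 ± 2.03 FPKM, SD, n = 3), with a log2 fold change of -0.92 (SE 0.0792, adjusted p = 2.4e-05). Mitochondrially encoded genes held 6.39 to 6.78% of the counts in NC and 8.53 to 9.17% in siGDF15, and their part in the results was not tested. Of the thyroid follicular markers reported here, only PAX8 (59.1 FPKM in NC and 79.5 in siGDF15, log2 fold change 0.53, adjusted p = 0.000122) and FOXE1 (2.76 and 2.83 FPKM) reached 1 FPKM. TG, SLC5A5, SLC26A4, DIO1 and NKX2-1 were under 1 FPKM in both groups. Of 3 leukocyte markers, PTPRC and CD3E were at 0.006 FPKM or less on average, and CD68, a lysosomal protein that is not restricted to leukocytes, was at 18.3 FPKM in NC and 16.9 FPKM in siGDF15. In bulk RNA of this kind, fewer cells of a type and less RNA per cell cannot be told apart.

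Promoter sequences were taken from RefSeq (GRCh38.p14) as the 250 bases before each annotated start; 28 of the 32 genes had a window, 39 windows in all, and ACAT2, FASN, FDFT1 and SQLE had none in that table. These motifs were searched on both strands: the sterol regulatory element TCACNCCAC that SREBPs are known to bind, the E-box CACGTG, the CCAAT box bound by NF-Y, a known partner of SREBPs, and the GC box GGGCGG bound by SP1-type factors. The CCAAT box was found in 61.5% of the 39 windows, against 33.2% of the 12810 windows of tested genes and 32% of all 35116 windows. The GC box was found in 89.7%, against 65.5% of the windows of tested genes and 42.6% of all windows. The sterol regulatory element in this spelling was found in 1 window, that of SREBF2, which is 2.56% of the 39 against 0.89% of the windows of tested genes and 0.883% of all windows. The E-box was found in 4 windows, of SC5D, SCAP and INSIG1, or 10.3% against 8.45% and 6.34%. The 2 SC5D windows overlap and hold the same E-box. Windows of some other genes, such as ACLY, also overlap, so a site can count more than once in these shares. The CCAAT box was in a window of 9 of the 12 matched genes that rose, 7 of the 9 that fell and 4 of the 7 that did not pass the test, so its presence did not separate the directions. These matches describe letters in a window and not binding. HMGCS1 and DHCR7 each also have another window, of a different annotated start. It holds 0 matches to the sterol regulatory element, the E-box and the CCAAT box, and is not shown. 6 windows are shown because they hold these motifs in genes on both sides of the comparison: HMGCS1 (chr5:43313413-43313662, minus strand), MSMO1 (chr4:165327419-165327668, plus strand) and DHCR7 (chr11:71448394-71448643, minus strand) of genes that rose, EBP (chrX:48521558-48521807, plus strand) of the sterol enzyme that fell most, SREBF2 (chr22:41832855-41833104, plus strand) for the sterol regulatory element and INSIG1 (chr7:155297628-155297877, plus strand) for the E-box. Each is written 5′ to 3′ on the strand of its gene and ends at the base before the start, and capitals mark the sterol regulatory element, the E-box and the CCAAT box, the last also in its reverse spelling ATTGG.
HMGCS1: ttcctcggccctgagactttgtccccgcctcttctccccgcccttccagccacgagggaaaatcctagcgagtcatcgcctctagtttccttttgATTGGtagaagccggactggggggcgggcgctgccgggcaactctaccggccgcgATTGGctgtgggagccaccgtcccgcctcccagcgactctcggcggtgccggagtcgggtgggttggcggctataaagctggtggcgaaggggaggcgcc
MSMO1: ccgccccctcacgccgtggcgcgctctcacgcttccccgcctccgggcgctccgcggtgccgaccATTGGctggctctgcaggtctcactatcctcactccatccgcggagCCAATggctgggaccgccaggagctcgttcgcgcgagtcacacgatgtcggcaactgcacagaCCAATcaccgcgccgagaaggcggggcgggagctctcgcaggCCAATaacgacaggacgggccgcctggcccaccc
DHCR7: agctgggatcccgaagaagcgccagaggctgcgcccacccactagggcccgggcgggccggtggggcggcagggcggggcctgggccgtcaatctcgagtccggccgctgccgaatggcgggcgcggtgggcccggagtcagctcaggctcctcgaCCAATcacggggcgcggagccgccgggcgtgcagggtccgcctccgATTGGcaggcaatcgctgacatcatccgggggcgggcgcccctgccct
EBP: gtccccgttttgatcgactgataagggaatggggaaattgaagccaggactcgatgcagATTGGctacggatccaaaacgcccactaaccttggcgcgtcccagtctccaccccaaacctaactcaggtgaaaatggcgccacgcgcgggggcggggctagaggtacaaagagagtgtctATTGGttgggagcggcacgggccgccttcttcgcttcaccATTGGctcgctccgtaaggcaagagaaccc
SREBF2: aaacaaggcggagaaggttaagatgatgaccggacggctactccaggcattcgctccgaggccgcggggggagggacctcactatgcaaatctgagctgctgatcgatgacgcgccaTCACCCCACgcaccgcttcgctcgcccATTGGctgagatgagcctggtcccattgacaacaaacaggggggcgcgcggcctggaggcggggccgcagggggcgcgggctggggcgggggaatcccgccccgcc
INSIG1: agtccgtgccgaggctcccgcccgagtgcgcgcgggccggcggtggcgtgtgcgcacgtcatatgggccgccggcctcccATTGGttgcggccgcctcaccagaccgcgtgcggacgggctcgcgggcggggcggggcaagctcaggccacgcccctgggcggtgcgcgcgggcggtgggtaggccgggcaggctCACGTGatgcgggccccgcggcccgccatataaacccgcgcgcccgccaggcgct

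In the SREBF2 window the first base of the sterol regulatory element lay 133 bases before the start, with a CCAAT box in reverse spelling next downstream of it. In the INSIG1 window the E-box began 55 bases before the start. The MSMO1 window held 4 CCAAT boxes and the EBP window held 3, although the first of these genes rose and the second fell.

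Of the early sterol enzymes, from acetyl-CoA to farnesyl diphosphate, HMGCS1 alone rose and ACAT2, IDI1 and FDPS fell. ACAT2, the cytosolic thiolase that joins 2 molecules of acetyl-CoA, was at 37.2, 35.9 and 33.4 FPKM in NC replicates 1 to 3 and at 23.4, 23.5 and 23.4 FPKM in siGDF15 replicates 1 to 3. The groups did not overlap, and the log2 fold change was -0.49 (SE 0.0513, adjusted p = 6.8e-05). Its gene model ends over that of TCP1, a chaperonin gene on the opposite strand that also fell (77.8 ± 7.38 to 53.8 ± 0.660 FPKM, SD, n = 3, log2 fold change -0.43), and although the library kit marks strand, the strand setting of the counting is not given in the sources used here. HMGCS1 (chr5:43287470-43313512, minus strand), which makes HMG-CoA, was at 7.24, 8.37 and 6.08 FPKM in NC and at 9.46, 9.41 and 9.88 FPKM in siGDF15. Every siGDF15 library was above every NC library, and the log2 fold change was 0.51 (SE 0.10, adjusted p = 0.00228).

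The kinases and the decarboxylase that turn mevalonate into isopentenyl diphosphate did not pass the test. MVK, mevalonate kinase, was at 2.59 to 3.53 FPKM in NC and 2.48 to 2.81 FPKM in siGDF15, with a log2 fold change of -0.10 (adjusted p = 0.469). PMVK, phosphomevalonate kinase, was nearly level across all 6 libraries at 34.0 to 37.6 FPKM, and its log2 fold change of 0.01 (adjusted p = 0.844) was -0.09 without TMM. MVD, the decarboxylase, was at 6.83 to 8.37 FPKM in NC and 7.86 to 8.42 FPKM in siGDF15 (log2 fold change 0.19, adjusted p = 0.0751). The groups of PMVK did not overlap in FPKM but did on TMM-scaled counts, those of MVD did not overlap on TMM-scaled counts but did in FPKM, and those of MVK overlapped on both. Without NC replicate 2 MVD did pass (log2 fold change 0.24, adjusted p = 0.0304) and MVK was at 0.0005, and without NC replicate 3 MVK passed as lower (-0.21, adjusted p = 0.0483).

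The next pair of enzymes fell. IDI1, which isomerises isopentenyl diphosphate to dimethylallyl diphosphate, was at 15.7, 15.6 and 12.7 FPKM in NC and at 9.26, 8.23 and 8.45 FPKM in siGDF15. The lowest NC library was above the highest siGDF15 library, and the log2 fold change was -0.66 (SE 0.0863, adjusted p = 0.000258). FDPS, the farnesyl diphosphate synthase at the branch point to sterols, prenyl groups, ubiquinone and dolichol, was at 51.9, 58.5 and 45.9 FPKM in NC and at 34.0, 34.0 and 36.1 FPKM in siGDF15, with a log2 fold change of -0.48 (SE 0.0795, adjusted p = 0.000931). It was the highest of the 18 sterol enzymes in NC by FPKM. HMGCS1 and IDI1 moved apart within each library: the ratio of their FPKM, which no scaling of the library can alter, was 0.492 ± 0.0394 in NC and 1.11 ± 0.0791 in siGDF15 (SD, n = 3). This ratio and those below were chosen after the values were seen and are given without a test.

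From squalene to lanosterol no enzyme fell. FDFT1, squalene synthase, was at 19.6 to 25.5 FPKM in NC and 20.04 to 21.3 FPKM in siGDF15 (log2 fold change -0.02, adjusted p = 0.826), and SQLE, squalene epoxidase, was at 32.2 to 40.0 FPKM in NC and 36.6 to 38.2 FPKM in siGDF15 (log2 fold change 0.16, adjusted p = 0.0822). Neither passed the test, although SQLE did without NC replicate 2 (0.23, adjusted p = 0.00524). LSS, the cyclase that forms lanosterol, was at 15.3, 16.5 and 12.9 FPKM in NC and at 15.3, 16.4 and 17.6 FPKM in siGDF15. The groups overlapped, and its log2 fold change of 0.25 (SE 0.0888, adjusted p = 0.0383) lost significance in 9 of 15 alternative analyses, among them those without TMM and without NC replicate 3.

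Of the enzymes that demethylate and reduce lanosterol, 4 rose and 3 fell. CYP51A1, the lanosterol demethylase, was at 9.24 to 10.7 FPKM in NC and 10.4 to 11.5 FPKM in siGDF15 (log2 fold change 0.21, SE 0.0696, adjusted p = 0.030). MSMO1, the methylsterol monooxygenase, was at 19.5, 21.7 and 15.5 FPKM in NC and at 22.5, 22.4 and 21.3 FPKM in siGDF15 (0.33, SE 0.107, adjusted p = 0.0253). The FPKM of both overlapped between the groups, whereas their TMM-scaled counts did not. The calls of CYP51A1 and MSMO1 were lost in 10 and 7 of the 15 alternatives. TM7SF2, a sterol reductase, was at 3.05, 3.91 and 2.01 FPKM in NC and at 4.08, 4.22 and 3.95 FPKM in siGDF15. Its log2 fold change of 0.55 was the largest rise of the 32 genes and also the least precise (SE 0.201, adjusted p = 0.0408, lost in 9 of 15 alternatives). It was 0.78 without NC replicate 2 and 0.34 without NC replicate 3, where HMGCS1, DHCR7, ACSS2 and FASN were above it, so the rank rested on that library. The end of the VPS51 gene model, on the same strand, overlaps its start and rose from 10.7 to 13.6 FPKM (log2 fold change 0.46). NSDHL, the dehydrogenase of the demethylation complex, stayed between 23.9 and 26.5 FPKM in all libraries (log2 fold change 0.06, adjusted p = 0.40, and -0.04 without TMM).

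HSD17B7, the ketoreductase that completes demethylation, was at 4.86, 5.27 and 4.13 FPKM in NC and at 3.54, 3.29 and 3.59 FPKM in siGDF15, with a log2 fold change of -0.35 (SE 0.0913, adjusted p = 0.0105). Its expressed copy HSD17B7P2 was at 1.39 FPKM in NC and 1.11 FPKM in siGDF15, and reads shared by the copies could be assigned to either. EBP (chrX:48521799-48528710, plus strand), the sterol isomerase, had the largest difference of the 32 genes. It was at 17.3, 17.9 and 16.5 FPKM in NC and at 7.83, 10.03 and 9.69 FPKM in siGDF15, so that on TMM-scaled counts its level in siGDF15 was 0.574 times that in NC (log2 fold change -0.80, SE 0.0998, adjusted p = 0.000189). SC5D, the desaturase that acts next, was at 3.03, 3.19 and 2.68 FPKM in NC and at 2.27, 1.83 and 1.92 FPKM in siGDF15 (-0.46, SE 0.0938, adjusted p = 0.0029). For all 3 genes the groups did not overlap.

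DHCR7 (chr11:71428193-71452868, minus strand), the reductase that acts directly on the product of SC5D, moved the other way. It was at 15.3, 17.04 and 14.5 FPKM in NC and at 19.3, 21.2 and 21.6 FPKM in siGDF15, with no overlap and a log2 fold change of 0.51 (SE 0.0706, adjusted p = 0.00033). The ratio of DHCR7 to EBP was 0.883, 0.953 and 0.880 in the NC libraries and 2.46, 2.12 and 2.23 in the siGDF15 libraries. In FPKM, EBP was thus slightly above DHCR7 in every NC library and below it in every siGDF15 library, while SC5D, which acts between them, was far below both in all libraries.

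**Figure D2:**
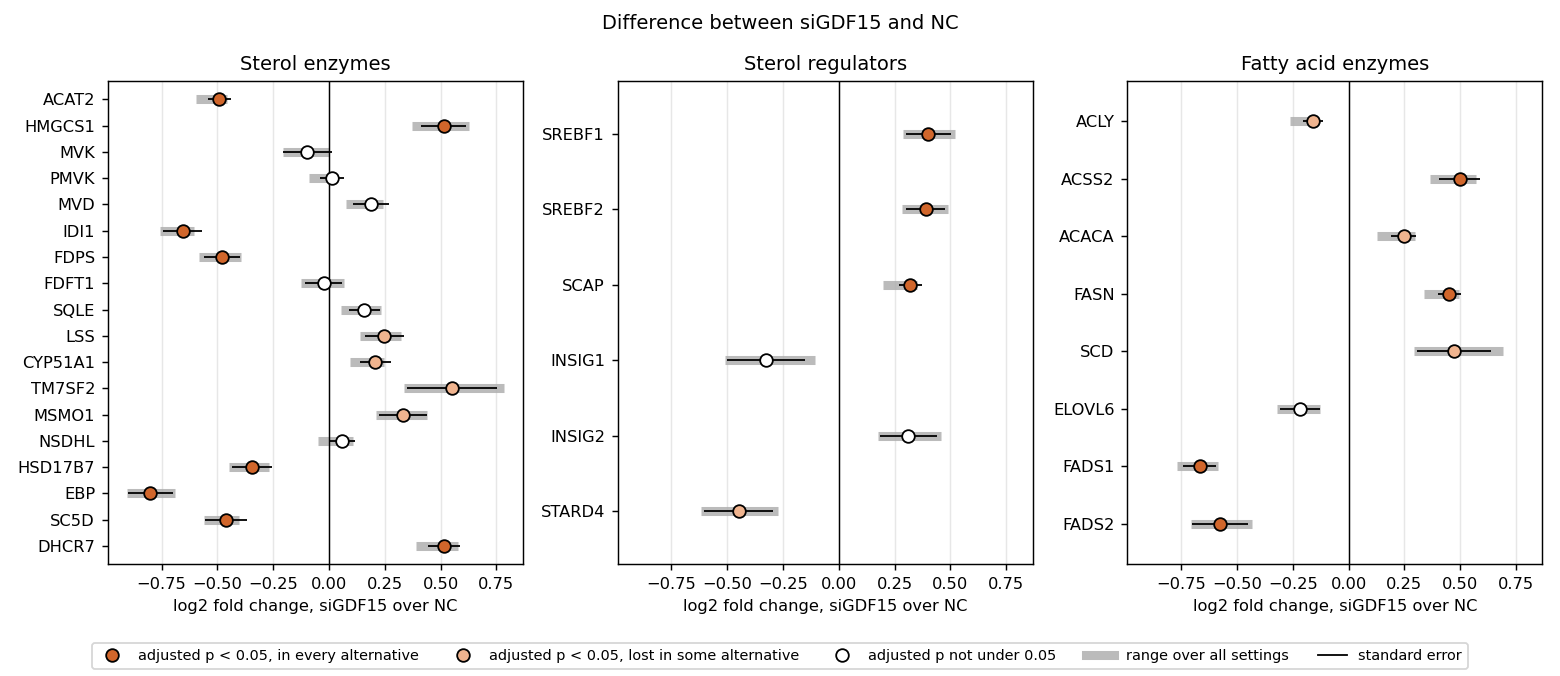
Log2 fold change (siGDF15 over NC) of the 32 genes in pathway order, with its standard error (black line) and the range over the main and 15 alternative analyses (grey bar); filled circles passed the test, and the darker ones did so in every alternative. The darker circles are 15 genes on both sides of 0, EBP lies farthest left, and the signs of PMVK and NSDHL depend on the scaling.

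Among the regulators, both SREBP genes and their escort rose by similar amounts. SREBF1 was at 21.8, 25.3 and 18.1 FPKM in NC and at 26.2, 26.7 and 27.1 FPKM in siGDF15 (log2 fold change 0.40, SE 0.101, adjusted p = 0.0086). SREBF2 (chr22:41833079-41907307, plus strand) was at 32.6, 37.6 and 28.6 FPKM in NC and at 39.4, 40.0 and 40.7 FPKM in siGDF15 (0.39, SE 0.086, adjusted p = 0.00442). For each gene the 3 siGDF15 libraries lay close together and above all NC libraries, and the ratio of SREBF1 to SREBF2 overlapped between the groups (0.659 ± 0.021 in NC and 0.666 ± 0.00178 in siGDF15, SD, n = 3). SCAP was at 10.2, 10.3 and 10.4 FPKM in NC and at 12.1, 12.3 and 11.5 FPKM in siGDF15 (0.32, SE 0.0496, adjusted p = 0.000643), the smallest standard error of the 6 regulators. The SREBF1 gene model overlaps RAI1 on the opposite strand.

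INSIG1 and INSIG2 did not pass the test, and their log2 fold changes had opposite signs. INSIG1 (chr7:155297776-155310235, plus strand), itself a known SREBP target, was at 13.6, 17.7 and 9.98 FPKM in NC and at 9.95, 10.7 and 9.94 FPKM in siGDF15. NC replicate 3 overlapped the siGDF15 libraries and NC replicate 2 stood far above them, and the log2 fold change was -0.33 (SE 0.173, adjusted p = 0.133). It was -0.51 without NC replicate 3 (adjusted p = 0.0024) and -0.11 without NC replicate 2, so that single NC libraries decided its value. INSIG2 was at 3.63, 4.53 and 3.16 FPKM in NC and at 4.35, 4.66 and 4.04 FPKM in siGDF15 (0.31, SE 0.129, adjusted p = 0.0644, with 0.46 and adjusted p = 0.00403 without NC replicate 2 and 0.20 and adjusted p = 0.14 without NC replicate 3). The ratio of INSIG1 to INSIG2 varied less within NC than either gene did: it was 3.75, 3.92 and 3.16 in NC and 2.29, 2.30 and 2.46 in siGDF15, without overlap. STARD4, a carrier that moves cholesterol between membranes, was at 11.8, 14.4 and 8.70 FPKM in NC and at 8.61, 7.33 and 7.80 FPKM in siGDF15, and its log2 fold change was -0.45 (SE 0.155, adjusted p = 0.0338). Its groups did not overlap in FPKM but did on TMM-scaled counts. The call was lost on leaving out any 1 library other than NC replicate 3, and the value was -0.27 without NC replicate 2 (adjusted p = 0.0745).

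Of the fatty acid enzymes, ACSS2, ACACA, FASN and SCD rose, ACLY, FADS1 and FADS2 fell, and ELOVL6 did not pass the test. ACLY, which makes cytosolic acetyl-CoA from citrate, was at 96.7, 95.3 and 88.5 FPKM in NC and 79.0, 77.4 and 76.9 FPKM in siGDF15, with a log2 fold change of -0.16 (SE 0.0458, adjusted p = 0.015) that lost significance without NC replicate 1 and without siGDF15 replicate 3. ACSS2, which makes acetyl-CoA from acetate, was at 9.02, 9.57 and 7.31 FPKM in NC and at 11.05, 11.7 and 11.2 FPKM in siGDF15 (0.50, SE 0.0931, adjusted p = 0.00185). The sources of acetyl-CoA from citrate and from acetate therefore differed in direction, each without overlap between the groups.

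ACACA, acetyl-CoA carboxylase, was at 7.73, 8.46 and 7.47 FPKM in NC and at 8.52, 8.45 and 9.13 FPKM in siGDF15, with a log2 fold change of 0.25 (SE 0.0559, adjusted p = 0.00496) that was 0.14 without TMM (adjusted p = 0.0553). FASN, the fatty acid synthase, was at 47.6, 49.0 and 45.4 FPKM in NC and at 57.2, 61.1 and 62.1 FPKM in siGDF15. It rose by 0.45 on the log2 scale (SE 0.051, adjusted p = 0.00011), and no alternative ended that call. The ratio of FASN to ACLY went from 0.507 ± 0.0118 in NC to 0.774 ± 0.0443 in siGDF15 (SD, n = 3).

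SCD, the desaturase that makes oleic acid, reached the highest level of the 32 genes in siGDF15. It was at 90.8, 119 and 67.2 FPKM in NC and at 113, 121 and 122 FPKM in siGDF15. NC replicate 2 lay within the siGDF15 range in FPKM, although the groups did not overlap on TMM-scaled counts. The log2 fold change was 0.47 (SE 0.168, adjusted p = 0.0374), and the call was lost in 10 of 15 alternatives, DESeq2 included (adjusted p = 0.0616). The log2 fold change was 0.69 without NC replicate 2 and 0.29 without NC replicate 3. ELOVL6, which elongates palmitate, was at 7.95 to 10.5 FPKM in NC and 7.30 to 7.52 FPKM in siGDF15, with a log2 fold change of -0.22 (SE 0.0891) that did not pass the test (adjusted p = 0.061) but did in 6 alternatives.

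FADS1 and FADS2, which introduce double bonds into polyunsaturated fatty acids and lie next to each other on chromosome 11, both fell. FADS1 (chr11:61799627-61829318, minus strand) was at 15.7, 17.7 and 14.2 FPKM in NC and at 9.58, 8.83 and 9.41 FPKM in siGDF15 (-0.67, SE 0.0739, adjusted p = 9.5e-05). FADS2 (chr11:61792980-61867354, plus strand) was at 2.14, 2.24 and 2.00 FPKM in NC and at 1.08, 1.54 and 1.35 FPKM in siGDF15 (-0.58, SE 0.126, adjusted p = 0.00425). Neither gene had overlapping groups, and the ratio of FASN to FADS1 was 3.00 ± 0.214 in NC and 6.49 ± 0.487 in siGDF15 (SD, n = 3). The annotated FADS2 gene spans FEN1, a DNA replication gene on the same strand that fell from 71.5 ± 1.43 to 24.9 ± 1.00 FPKM (SD, n = 3, log2 fold change -1.42, adjusted p = 4.3e-07), and its model also crosses that of FADS1 on the opposite strand. At a level this far below that of FEN1, how the authors divided reads between them could set the FADS2 value, and this was not tested.

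Summed over the 32 genes, FPKM was 701 ± 78.7 in NC and 690 ± 13.1 in siGDF15 (SD, n = 3). The sum over the 18 sterol enzymes was 333, 355 and 301 FPKM in NC and 289, 293 and 302 FPKM in siGDF15, and the sum over the 8 fatty acid enzymes was 279, 312 and 240 FPKM in NC and 287, 298 and 300 FPKM in siGDF15. In both branches the groups overlapped. The genes with the highest FPKM weigh most in such sums, FDPS, PMVK and SQLE in the first and SCD, ACLY and FASN in the second.

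The groups of libraries did not overlap in FPKM for 20 of the 32 genes, 8 higher and 12 lower. Over all 11867 tested genes this held for 68.4%, 3038 higher and 5081 lower. On TMM-scaled counts they did not overlap for 23 of the 32, 14 higher and 9 lower, against 67.9% of all tested genes, 4014 higher and 4048 lower. Of the 23 genes that passed the test, 15 did so in every alternative: HMGCS1, DHCR7, SREBF1, SREBF2, SCAP, ACSS2 and FASN as higher, and ACAT2, IDI1, FDPS, HSD17B7, EBP, SC5D, FADS1 and FADS2 as lower. Among the sterol enzymes these were 2 higher and 6 lower, beside 6 and 6 in the main analysis. Without TMM and with limma on FPKM, 36.6% of the calls over all tested genes were higher, against 48.9% in the main analysis. The split among the calls that held therefore depends on which alternatives were chosen. The share of all tested genes that held in every alternative was not computed. The 8 calls that some alternative ended were those of LSS, CYP51A1, TM7SF2, MSMO1, SCD and ACACA as higher and of STARD4 and ACLY as lower. Leaving out NC replicate 1 ended the calls of LSS, CYP51A1, TM7SF2, MSMO1, SCD, STARD4 and ACLY, and leaving out siGDF15 replicate 3 those of LSS, CYP51A1, TM7SF2, SCD, STARD4 and ACLY. The call of ACACA was lost only without TMM and with limma on FPKM.

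The NC libraries differed among themselves in an order that most of the 32 genes shared. NC replicate 2 was the highest and NC replicate 3 the lowest of the NC libraries for 26 of the 32 genes (81.2%), against 30.5% of all tested genes on TMM-scaled counts. This order was seen for 14 of 18 sterol enzymes, 5 of 6 regulators and 7 of 8 fatty acid enzymes, and the exceptions were ACAT2, PMVK, IDI1, NSDHL, SCAP and ACLY. The median log2 ratio of NC replicate 2 to NC replicate 3 was 0.31 for the 32 genes and 0.008 over all tested genes. For 20 of the 32 genes (62.5%) NC replicate 2 was more than 1.2-fold above NC replicate 3, against 16.4% of all tested genes. The ratio was widest for TM7SF2 (1.91), INSIG1 (1.75), SCD (1.75), STARD4 (1.63) and INSIG2 (1.41). The order of the NC libraries and the 1.2-fold cut were not set in advance and are given without a test.

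The siGDF15 libraries were closer together. The median log2 distance from the highest to the lowest library was 0.31 in NC and 0.12 in siGDF15 for the 32 genes, against 0.19 and 0.13 over all tested genes. The NC distance was the wider one for 25 of the 32 genes (78.1%) and for 63.5% of all tested genes. For 14 of the 32 genes, 6 of them called, the log2 fold change between siGDF15 and NC was smaller in size than the log2 distance across the NC libraries. The share of all tested genes for which this holds was not computed, so the count does not set these genes apart. Leaving out single libraries changed several calls: without NC replicate 2, 16 genes rose and 9 fell, without NC replicate 3, 11 rose and 13 fell, and without NC replicate 1, which left the outer pair, 8 rose and 8 fell. Without siGDF15 replicate 1, 2 or 3 in turn, 9 rose each time and 9, 9 and 8 fell. Calls also changed over all 11867 tested genes, from 3565 higher and 3721 lower with all libraries. They were 3665 and 3758 without NC replicate 2, 3606 and 3732 without NC replicate 3 and 3014 and 3206 without NC replicate 1. Without siGDF15 replicate 1, 2 or 3 they were 3208 and 3323, 3158 and 3249, and 3077 and 3183. All 15 genes called in every alternative lay outside the NC range in all siGDF15 libraries and passed with each library left out. EBP, IDI1, FADS1, FASN, DHCR7 and ACAT2 were among them. The share of all tested genes that met both conditions was not computed.

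**Figure D3:**
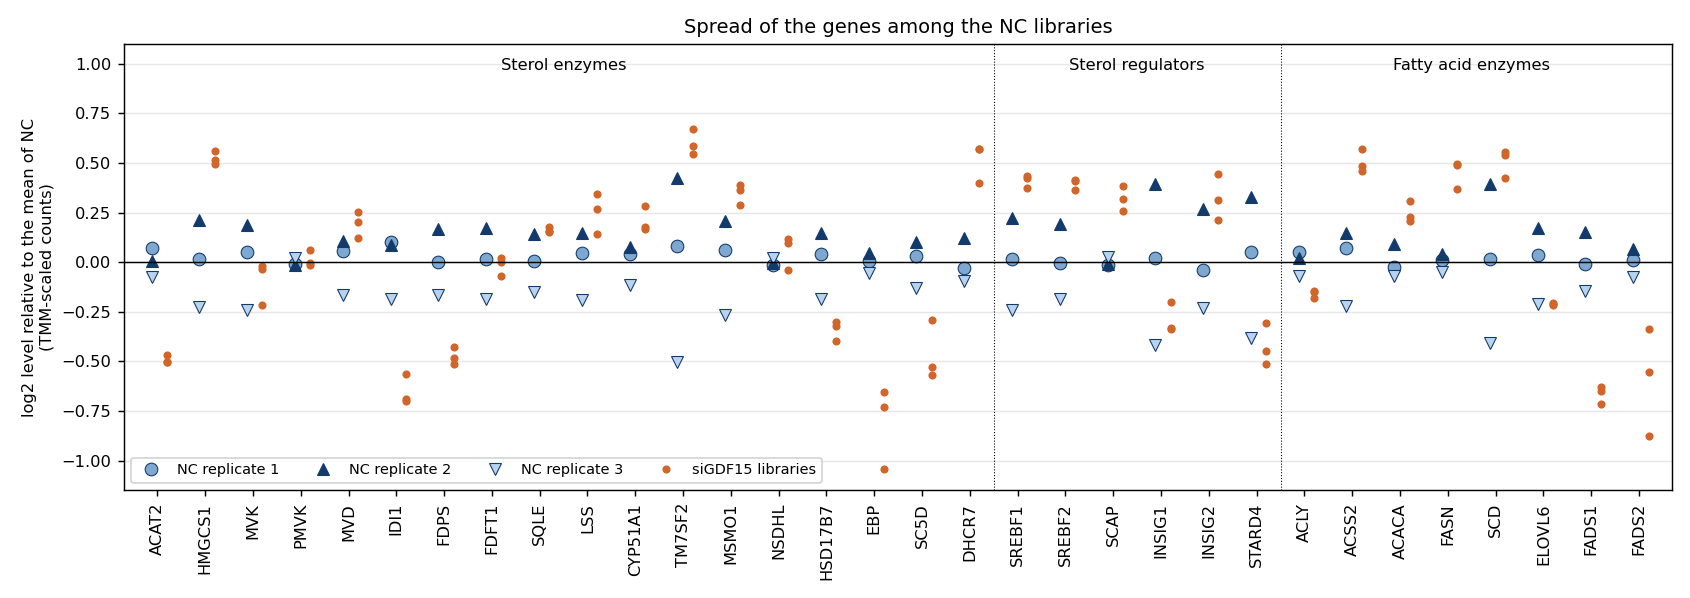
TMM-scaled level of each of the 32 genes in each library as the log2 difference from the mean of NC; upward triangles are NC replicate 2, downward triangles NC replicate 3, circles NC replicate 1 and dots the siGDF15 libraries. NC replicate 2 lies at the top and NC replicate 3 at the bottom of the NC points for 26 of the 32 genes, and the siGDF15 dots of INSIG1 overlap the NC points whereas those of EBP, IDI1 and FADS1 do not.

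Further genes of these pathways outside the 32 were examined in 6 lists. Of 10 genes for the cleavage and turnover of SREBPs and for sterol sensing, 4 rose and 4 fell, with a median log2 fold change of -0.06. RNF139, an ubiquitin ligase of the endoplasmic reticulum (0.44, adjusted p = 0.000383), and MBTPS1, the site-1 protease that makes the first cut in SREBPs (0.28, adjusted p = 0.0013), rose. ERLIN1, a membrane protein that binds cholesterol, fell from 23.3 to 11.6 FPKM (-0.90, adjusted p = 9.5e-06), and SPRING1, a Golgi factor that the SREBP machinery needs, fell from 5.72 to 3.40 FPKM (-0.64, adjusted p = 4.1e-05). The rise of SREBF1, SREBF2 and SCAP was thus not shared by all genes around them.

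Of 14 tested genes of sterol uptake, storage and transport, 7 rose and 2 fell, with a median of 0.26. NPC2, which carries cholesterol out of lysosomes, rose from 27.7 to 42.0 FPKM (0.71, adjusted p = 2.0e-05), and ABCA1, the cholesterol exporter, rose from 5.34 to 12.1 FPKM (1.28, adjusted p = 2.4e-05), beyond any of the 32 genes. The lipoprotein receptors LRP8 (-0.90, adjusted p = 1.1e-05) and VLDLR (-0.31, adjusted p = 0.000828) fell. Of 12 genes of the non-sterol isoprenoid branch (prenyl diphosphates, ubiquinone, dolichol and protein prenylation), 4 rose and 4 fell (median 0.03). GGPS1, which makes geranylgeranyl diphosphate (0.81, adjusted p = 1.5e-05), and DHDDS, a subunit of the enzyme that builds dolichol (0.96, adjusted p = 2.3e-05), rose, and PDSS1, which makes the side chain of ubiquinone (-0.92, adjusted p = 8.7e-05), and ICMT, which methylates prenylated proteins (-0.56, adjusted p = 0.000147), fell. GGPS1 and DHDDS rose while FDPS, which makes their substrate, fell.

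Of the other sterol enzymes listed, 2 were tested. LBR, a protein of the inner nuclear membrane that carries the same sterol reductase activity as TM7SF2, was at 43.4, 47.7 and 39.2 FPKM in NC and at 15.7, 13.8 and 13.6 FPKM in siGDF15. It fell by 1.49 on the log2 scale (SE 0.0804, adjusted p = 2.1e-06), whereas TM7SF2 rose, and in FPKM it stood above TM7SF2 in both groups. ACAT1, the mitochondrial thiolase, rose by 0.18 (adjusted p = 0.0161), whereas its cytosolic counterpart ACAT2 fell.

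Of 27 other tested genes of fatty acid and glycerolipid synthesis, 10 rose and 7 fell, with a median of 0.11. ACSL4, which activates polyunsaturated fatty acids (0.45, adjusted p = 4.4e-05), and ME1, the malic enzyme that supplies NADPH (0.63, adjusted p = 7.3e-05), rose. HACD2, a dehydratase of fatty acid elongation (-0.82, adjusted p = 7.9e-06), and ELOVL5, an elongase of polyunsaturated chains (-0.51, adjusted p = 4.1e-05), fell, as did FADS1 and FADS2. Of 16 tested genes of fatty acid oxidation, 11 rose and 3 fell, with a median of 0.45, the highest of the 6 lists. HADHB (0.78, adjusted p = 2.7e-06) and HADHA (0.54, adjusted p = 1.2e-05), the subunits of the mitochondrial trifunctional protein, rose, and HADH, a short-chain dehydrogenase (-0.89, adjusted p = 8.2e-06), and PPARD, a nuclear receptor (-0.66, adjusted p = 3.7e-05), fell. These lists are described by their counts and medians, beside 61.4% called and a median of 0.003 over all tested genes, and the difference between lists was not tested.

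**Figure D4:**
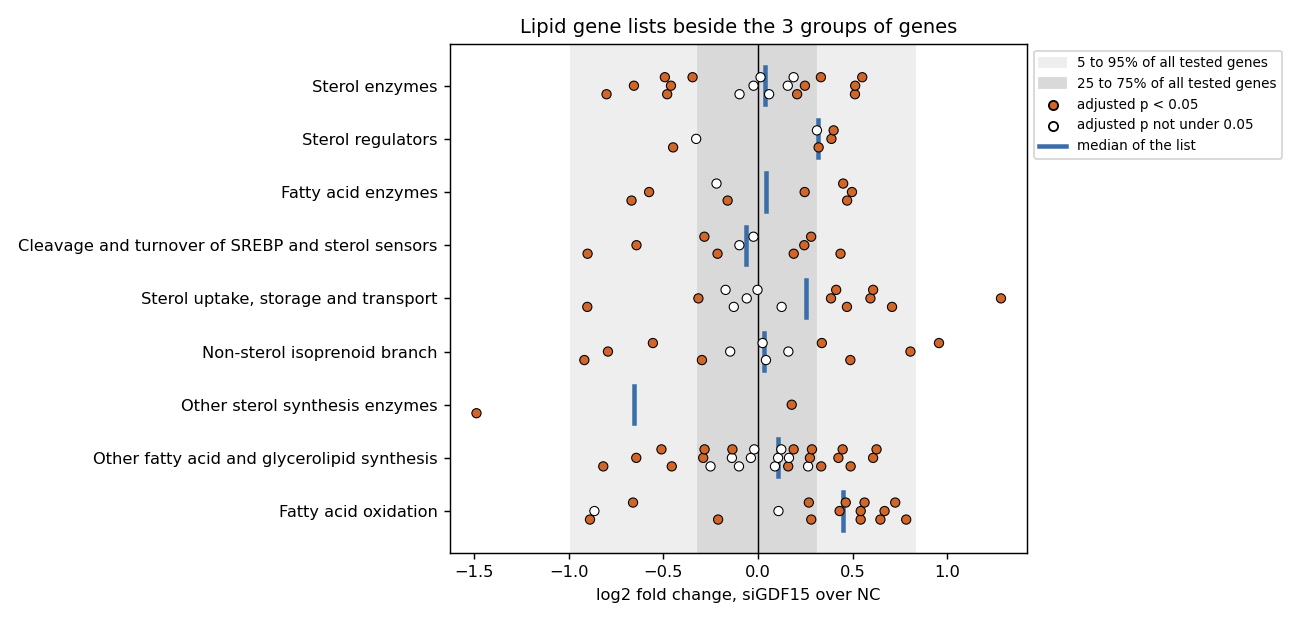
Log2 fold change (siGDF15 over NC) of each tested gene of the 3 groups of the 32 genes and of 6 further lists; filled dots passed the test, blue bars are medians and the grey bands hold 50% and 90% of all tested genes. The medians of the sterol and fatty acid enzymes lie at 0.04, near 0 and negative without TMM, and that of fatty acid oxidation lies at 0.45. LBR, ABCA1 and DHDDS lie outside the wider band.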

How the data were processed

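Poly(A) RNA of 3 siGDF15 and 3 NC libraries was sequenced in read pairs. The submitters' processing notes name fastp, HISAT2, StringTie and edgeR with GRCh38, without versions. The authors deposited FPKM values per gene and library, scaled by transcript length and mapped fragments. The authors also deposited expected counts, whole numbers derived from transcript coverage and not normalized; 4 was the most frequent low value (15.6% of counts from 1 to 20), so 1 read pair may stand for 4 counts. 0 columns of values per library were left out. Annotation columns were used only for identifiers, positions and KEGG lists.

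Counts were tested with edgeR 4.0.16 (quasi-likelihood test, two-sided, TMM) over genes whose mean FPKM was 1 or more, with Benjamini-Hochberg adjustment over all of them and a threshold of 0.05, in R 4.3.3. Levels are FPKM, and fold changes use TMM-scaled counts. Standard errors came from the fold change and its F statistic. Alternatives used DESeq2 1.42.0, limma 3.58.1 on log2(FPKM + 1) or log2(FPKM + 0.1), other scalings, filters and thresholds, a replicate block, and each library left out. Counts divided by 4 were added after seeing the data. The fits were tested on simulated counts in which few genes changed, unlike in these data. That simulation therefore does not bear on the choice of scaling. With 3 libraries a group, p-values weigh the group difference against the variation between these libraries, estimated with information shared across the tested genes. The number of cultures behind the libraries is not given, so variation between cultures may not be covered.

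All 32 genes are named. Of each further list the 2 genes with the smallest adjusted p in each direction are named, besides GDF15, and genes that overlap or copy one of the 32 were named after their values were seen. The 32 genes and the lists were chosen with earlier results of these data known. Some genes of the lists are not reported here. Figures were drawn with matplotlib in Python.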

Additional observations from a re-analysis of the deposited data

How the results depend on the processing

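Each gene's log2 fold change was recomputed in 15 alternatives. With single libraries left out, 156 of 192 values kept their direction and side of the threshold, 26 lost the call, 6 gained it and 4 changed sign. In the other settings 244 of 288 did, 29 lost it, 7 gained it and 8 changed sign. When a log2 change of 1 or more was also required, 0 genes were called in each direction in each of the 3 groups of genes. Without TMM, 7 of the 32 genes, 2 sterol enzymes and 2 fatty acid enzymes were higher, and PMVK and NSDHL were at -0.0882 and -0.0432. With limma the counts were also 7, 2 and 2, with PMVK at -0.0895 and NSDHL at -0.0459 for a pseudocount of 1 and at -0.0918 and -0.0475 for 0.1; FPKM lacks the TMM factor by construction. With a mean FPKM of at least 0.1, 3 sterol enzymes were higher and PMVK was at -0.017. With no filter, 8 of the 32 genes and 2 sterol enzymes were higher and PMVK was at -0.0398; the cause was not tested.

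With single libraries left out, the genes called higher numbered 8 to 16 and those called lower 8 to 13, sterol enzymes higher 2 to 8 and regulators lower 0 to 2. Over all tested genes the calls then numbered 6220 to 7423, against 7286 with all libraries. The log2 fold change ranged from -0.208 to 0.000459 for MVK, from -0.111 to 0.0664 for FDFT1 and from -0.00928 to 0.030 for PMVK. The call on STARD4 was lost without any 1 library except NC replicate 3.

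Libraries with the same replicate number did not deviate together (correlations of 0.0398, -0.113 and 0.0322), so the numbers were not taken as pairs. With the replicate block, 6906 genes were called against 7286, and 13 of the 32 were higher and 10 lower; CYP51A1 no longer passed (0.21, adjusted p = 0.068) and INSIG2 did (0.32, adjusted p = 0.0194). Counts divided by 4 gave 13 higher and 10 lower.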

Other observations

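The order of the NC libraries seen in the 32 genes was counted in the further lists, where NC replicate 2 was highest and NC replicate 3 lowest for 0 of 12 genes of the non-sterol isoprenoid branch, 5 of 10 genes of SREBP cleavage and turnover, 7 of 14 of sterol uptake, storage and transport, 11 of 27 of other fatty acid and glycerolipid synthesis and 6 of 16 of fatty acid oxidation, beside 30.5% of all tested genes. LPIN1, a phosphatidate phosphatase named here after its values were seen, followed it with 11.7, 16.8 and 7.63 FPKM in NC replicates 1 to 3 and a mean of 10.4 FPKM in siGDF15 (log2 fold change -0.10, adjusted p = 0.724).

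The genes outside the 32 were also counted by the KEGG annotation of the deposited table, with no test between lists. Of 5 tested in steroid biosynthesis, 1 rose and 2 fell (median log2 fold change 0.08). Of 12 tested in terpenoid backbone biosynthesis, 6 rose and 4 fell (median 0.11), and of 17 in the biosynthesis of unsaturated fatty acids, 7 rose and 7 fell (median 0.09). Of 20 in fatty acid elongation, 10 rose and 7 fell (median 0.17). Of 30 in fatty acid degradation, 17 rose and 6 fell (median 0.22), and of 10 in fatty acid biosynthesis, 3 rose and 1 fell (median 0.10).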
